A study of Mus musculus with 4 samples.

Results

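Stefin A and stefin B genes were followed in 4 mouse RNA-seq libraries of myeloid cells. The rows used were those whose gene name was Stfa1, Stfa2, Stfa2l1, Stfa3, BC100530, Gm5483 (stefin A genes, with further loci given below) or Cstb (stefin B). These are 7 of the 24706 genes in the tables, 6 of stefin A and 1 of stefin B. They were selected on the FPKM of these same libraries, with the difference between the groups known, so their levels and changes are given as a description, without a test. There were 2 wt and 2 cko libraries. The labels give the genotype as wt or cko only. The paper names the groups PD-1f/f (its methods say wild-type) and PD-1f/f; LysM-Cre, so that, by the former account, the floxed allele of Pdcd1, the gene of the receptor PD-1, is carried by the controls too. Cre is driven from the Lyz2 locus in LysM-Cre mice, which limits the deletion to cells that use this locus, mainly macrophages and granulocytes. The results section of the paper describes CD11b+ cells sorted from the liver at postnatal day 3, whereas its methods describe RNA of livers at postnatal day 2 and name no sort. Neither says how many mice were pooled into a library or whether the libraries are separate litters, so that the spread between the 2 libraries of a group may be technical.

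Stefins are small cytosolic proteins of the cystatin superfamily. They bind tightly and reversibly in the active site of papain-like cysteine proteases such as cathepsins B, H, L and S, and so restrain these enzymes when they leave the lysosome. Mice carry a cluster of stefin A gene copies where humans have a single CSTA gene, and several of these copies are known for high expression in granulocytes and their precursors, whereas Cstb, a single gene whose human counterpart is mutated in a progressive myoclonus epilepsy, is active in most cell types.

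These 6 stefin A genes lie within 298582 bases of chromosome 16, and the annotated genes span chr16:36156811-36455392 (positions as in the files, which are those of GRCm38). From one end to the other they are Stfa2l1 (chr16:36156811-36161948, plus strand), Gm5483 (chr16:36184212-36188111, plus), Stfa1 (chr16:36277148-36285371, plus), BC100530 (chr16:36359382-36367748, minus), Stfa2 (chr16:36403946-36408363, minus) and Stfa3 (chr16:36450537-36455392, minus). Cstb lies elsewhere, at chr10:78425669-78427622 on the plus strand. RefSeq calls Gm5483 and BC100530 by the symbols Cstdc4 and Cstdc5, for cystatin domain containing genes.

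The copies fall into pairs by sequence, which bears on how far reads can be told apart. The coding sequences of Stfa1 and BC100530 (97 codons each, GENCODE M21) differ at 6 of 294 bases, and those of Stfa2 and Stfa2l1 (103 codons each) at 11 of 312. They are printed here 5′ to 3′ from the start codon, whole for Stfa1 and BC100530 and to base 300 for Stfa2 and Stfa2l1, with the bases that differ from the other gene of the pair in capitals.
Stfa1: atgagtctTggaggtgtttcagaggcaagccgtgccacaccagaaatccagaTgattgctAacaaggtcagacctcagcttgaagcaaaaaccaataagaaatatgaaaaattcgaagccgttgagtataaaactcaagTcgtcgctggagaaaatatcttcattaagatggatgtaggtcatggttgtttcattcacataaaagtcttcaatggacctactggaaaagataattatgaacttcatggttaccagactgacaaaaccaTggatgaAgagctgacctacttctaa
BC100530: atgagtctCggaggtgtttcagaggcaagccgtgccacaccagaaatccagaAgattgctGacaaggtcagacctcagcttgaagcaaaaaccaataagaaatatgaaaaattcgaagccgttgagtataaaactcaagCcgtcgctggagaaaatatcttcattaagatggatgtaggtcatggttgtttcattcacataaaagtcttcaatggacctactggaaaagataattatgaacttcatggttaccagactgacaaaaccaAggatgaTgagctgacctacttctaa
Stfa2: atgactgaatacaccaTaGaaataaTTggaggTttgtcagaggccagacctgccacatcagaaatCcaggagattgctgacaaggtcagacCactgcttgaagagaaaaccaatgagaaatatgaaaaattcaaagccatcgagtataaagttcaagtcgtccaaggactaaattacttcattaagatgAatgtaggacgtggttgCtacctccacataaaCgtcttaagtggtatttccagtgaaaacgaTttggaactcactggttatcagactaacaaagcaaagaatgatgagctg
Stfa2l1: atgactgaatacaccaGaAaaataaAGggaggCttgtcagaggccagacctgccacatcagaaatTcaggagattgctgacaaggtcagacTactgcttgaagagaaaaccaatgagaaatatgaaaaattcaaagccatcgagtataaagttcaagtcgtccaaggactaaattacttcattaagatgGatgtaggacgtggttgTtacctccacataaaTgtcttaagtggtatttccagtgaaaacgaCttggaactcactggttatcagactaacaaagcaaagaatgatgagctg
Between the pairs identity was much lower, at 74.7% for Stfa1 and Stfa2. Stfa1 and Cstb shared 57.6% of aligned coding bases. Of all stretches of 50 bases in the annotated transcripts of a gene, 48.9% for BC100530, 35.6% for Gm5483, 26.9% for Stfa1, 24.6% for Stfa2l1 and 15.9% for Stfa2 also occurred in a transcript of another gene, and 0 did for Stfa3 and Cstb. With stretches of 100 bases the shares fell to 22.3% for BC100530, 11.1% for Gm5483 and 5.60% for Stfa1, and to 0 for the others. Matches on either strand were counted, so these shares are not all with the other gene of a pair. For BC100530 23.0% of stretches of 50 bases were shared with Stfa1. Its largest share at 100 bases, 9.23%, was with Gm15845, which overlaps it on the opposite strand. Gm5483 shared its stretches with 2010005H15Rik, a further stefin A locus given below. The read length and the treatment of reads with several matches are not given in the sources used here, so the split of reads within a pair is uncertain, and the summed reads of the 6 genes are given beside the single genes. Stfa3 and Cstb do not carry this uncertainty at 50 bases.

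**Figure D1:**
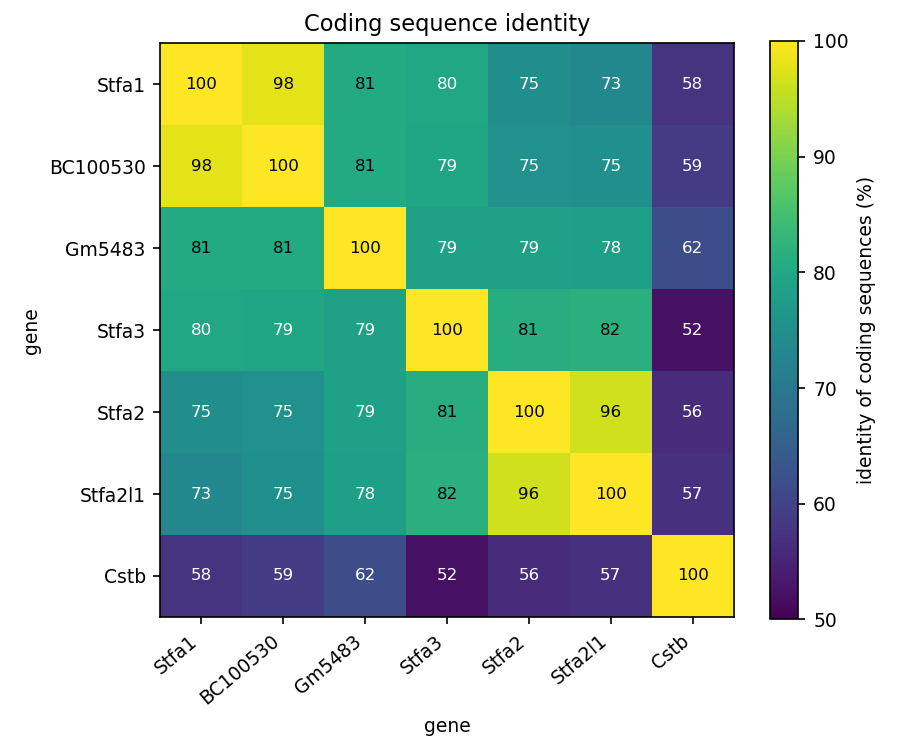
Identity of aligned coding sequences between the 7 genes, in percent, as a colour scale from 50 to 100. Stfa1 with BC100530 and Stfa2 with Stfa2l1 form the closest pairs, at 98.0% and 96.5%, and Cstb lies apart from all 6 stefin A genes.

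The promoters of the stefin A genes are alike as well, as the 100 bases before each RefSeq start site show (GRCm38.p6, printed 5′ to 3′ on the strand of the gene). Capitals mark the letters TTTAAA, which resemble the box of the core promoter bound by TBP, and the letters AGATAA, which erythroid factors such as Gata1 are known to bind.
Stfa1: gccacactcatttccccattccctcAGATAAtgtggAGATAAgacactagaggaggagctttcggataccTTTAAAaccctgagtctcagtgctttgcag
BC100530: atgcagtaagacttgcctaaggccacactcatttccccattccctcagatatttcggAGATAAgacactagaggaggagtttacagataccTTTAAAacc
Stfa3: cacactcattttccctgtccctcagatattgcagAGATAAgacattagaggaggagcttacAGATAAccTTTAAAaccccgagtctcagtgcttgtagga
Gm5483: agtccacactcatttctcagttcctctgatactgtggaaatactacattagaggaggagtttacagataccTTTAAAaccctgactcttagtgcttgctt
Stfa2l1: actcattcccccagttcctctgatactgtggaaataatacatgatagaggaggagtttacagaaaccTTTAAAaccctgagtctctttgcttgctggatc
Stfa2: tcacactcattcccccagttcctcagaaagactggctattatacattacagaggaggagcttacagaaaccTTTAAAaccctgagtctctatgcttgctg
These windows lie at chr16:36277048-36277147, chr16:36367571-36367670, chr16:36455393-36455492, chr16:36184112-36184211, chr16:36156711-36156810 and chr16:36408364-36408463, in the order printed. The window of BC100530 lies within the gene as the files give it, since RefSeq places the start further in. Motifs were searched on both strands from 250 bases before to 50 bases after the start, and no matches of different motifs overlapped. TTTAAA was found in 6 of 6 stefin A promoters, against 13.2% of all 32851 promoters of the same length, and its first base lay 29 to 33 bases before the start in 5 of them and 9 bases before it in BC100530. AGATAA was found in Stfa1, BC100530 and Stfa3, so in 3 of 6 (11.2% of all promoters). GAGGAAG, a core motif of PU.1, was found in Stfa1, BC100530 and Gm5483 (13.6% of all promoters), and TTNNGNAA, a C/EBP motif, in all but Stfa3 (40.7%). A consensus of NF-kB was found in 0 of 6 (0.411%). In this window Stfa2 and Stfa2l1 were identical at 90.5% of aligned bases, and Stfa1 and BC100530 at 83.8%. A match is a description of letters and was not tested as a binding site.

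Expression is given as FPKM, read numbers divided by a gene length and by library size. For 22553 of the 24706 genes this length was that of all annotated exons of the gene joined, which can exceed a single transcript. Ratios of levels between genes therefore depend on the annotation as well. Library totals recovered from the values were 17691505 to 22212407 counted reads. Pdcd1 measured 28.5 and 34.7 FPKM in wt and 17.1 and 21.4 FPKM in cko, so that its reads were lower but not absent in the libraries labelled cko (log2 fold change -0.69, adjusted p = 0.218, limma). Lyz2, whose locus carries Cre in LysM-Cre mice, measured 31306 and 32147 FPKM in wt and 10422 and 8127 FPKM in cko (-1.79, adjusted p = 0.183, limma). Itgam, which encodes CD11b, stood at 48.5 to 54.3 FPKM and Ptprc, which encodes CD45, at 58.1 to 75.1 FPKM in all 4 libraries, so that the markers of the labelled cell type were present.

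Stefin A transcripts were among the most abundant of these cells, and 4 of the 6 genes had mean levels 1.94-fold to 2.27-fold lower in cko than in wt. By mean FPKM over the 4 libraries Stfa1 ranked 6, Gm5483 8, BC100530 10, Stfa3 15, Stfa2 21 and Stfa2l1 22 among all genes, and Cstb 832. All 7 genes passed the minimum mean of 1 FPKM set for the fit. In 6 of 7, all but Cstb, both cko libraries were below both wt libraries, and this pattern was present in 18.0% of the 10779 genes tested. Since the genes were chosen with this contrast known, nothing is read from that count. The median log2 fold change (cko minus wt, on log2(FPKM + 1)) of the 6 stefin A genes was -0.97, and that of all genes tested was 0.09.

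**Figure D2:**
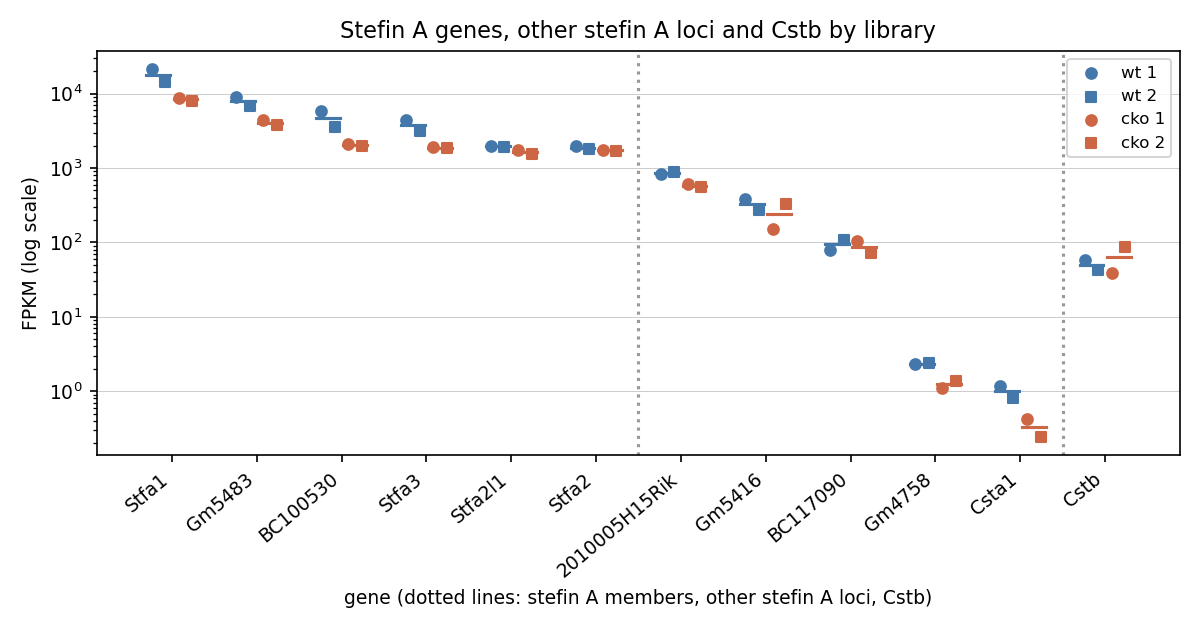
FPKM (log axis) of the 6 stefin A genes, of 5 other stefin A loci and of Cstb in each library, with circles and squares for replicates 1 and 2 and a short line for the group mean. The wt 1 and wt 2 points lie apart for Stfa1, Gm5483, BC100530 and Stfa3 and close together for Stfa2l1 and Stfa2, and the cko 2 point of Cstb, at 88.0 FPKM, is the highest of the 4.

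Stfa1, the most abundant stefin transcript in every library, measured 21374 FPKM in wt 1 and 14308 in wt 2, and 8743 in cko 1 and 8029 in cko 2. The groups did not overlap, and the wt libraries were further from each other than the cko libraries were. Group means were 17841 ± 4996 (SD, n = 2) and 8386 ± 505 FPKM (SD, n = 2), a log2 fold change of -1.06 (SE 0.23), or 2.13-fold lower in cko. These values rest on 59374 to 198454 reads per library, so that counting error was small beside the spread between libraries. Quantile normalization, which gives each rank 1 value, left a log2 fold change of -0.20 for Stfa1 and of -0.35 for Gm5483.

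BC100530, the close copy of Stfa1, encodes a stefin A-like protein. Its levels were 5775 and 3540 FPKM in wt 1 and wt 2 and 2118 and 1992 FPKM in cko 1 and cko 2, again with no overlap and with wt 1 highest. The log2 fold change was -1.14 (SE 0.25), or 2.27-fold lower. The paper uses a threshold of a |log2FC| above 1 with an unadjusted p under 0.01. The 7 genes are not judged by it, since they were chosen with this contrast known. Of all genes tested, 0.408% were called at this threshold in the lower direction, 1.88% in the higher direction and 2.29% in either. The balance of these calls depended on scaling, with 203 higher and 44 lower with FPKM as deposited, 146 and 65 after median-of-ratios scaling and 150 and 79 after quantile normalization. At a |log2FC| of at least 1 with an adjusted p under 0.05, the threshold of its methods, 0 of 10779 genes passed (0.0%), with a smallest adjusted p of 0.129 (limma), while 1768 genes had an unadjusted p under 0.05. Voom on recovered reads called 2 genes.

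Stfa3, whose examined transcript shares no stretch of 50 bases with another gene, followed the same order of libraries. It measured 4428, 3117, 1900 and 1846 FPKM in wt 1, wt 2, cko 1 and cko 2, with a log2 fold change of -0.99 (SE 0.20). Among the 6 stefin A genes, Stfa3 was the only one without such a shared stretch. Of the other stefin A loci given below, Gm5416 and Gm4758 shared none either. For Gm5416 the groups overlapped, and for Gm4758, at few reads, both cko libraries were below both wt libraries. The part of shared reads in the levels was not tested. Gm5483, a further stefin A-like gene, measured 8953 and 6886 FPKM in wt and 4368 and 3807 FPKM in cko (-0.95, SE 0.19). Its groups did not overlap either, and its closest relative by sequence was 2010005H15Rik, with 96.9% of aligned coding bases identical.

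Stfa2 and Stfa2l1, the other pair, differed little between the groups. Stfa2 measured 1966 and 1780 FPKM in wt and 1746 and 1709 FPKM in cko (log2 fold change -0.11, SE 0.14). Stfa2l1 measured 1984 and 1918 FPKM in wt and 1738 and 1542 FPKM in cko (-0.25, SE 0.14). For both, the nearest libraries of different groups lay closer together than the 2 libraries of one group, wt for Stfa2 and cko for Stfa2l1. The 2 genes kept nearly equal levels, with a Stfa2l1 to Stfa2 ratio of 1.01, 1.08, 0.995 and 0.902 in wt 1, wt 2, cko 1 and cko 2.

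The copies therefore did not move in step. Stfa1 was 10.9 and 8.04 times as high as Stfa2 in wt 1 and wt 2, and 5.01 and 4.70 times as high in cko 1 and cko 2. By contrast, the ratio of Stfa1 to BC100530 stayed between 3.70 and 4.13 in all 4 libraries. In the sum of the 6 genes the share of Stfa2 was 4.42% and 5.64% in wt and 8.47% and 9.03% in cko, and that of Stfa2l1 was 4.46% and 6.08% in wt and 8.43% and 8.15% in cko. The share of Stfa1 was 48.1% and 45.4% in wt and 42.4% in both cko libraries, while Gm5483 kept 20.1% to 21.8% and Stfa3 9.22% to 9.95%.

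**Figure D3:**
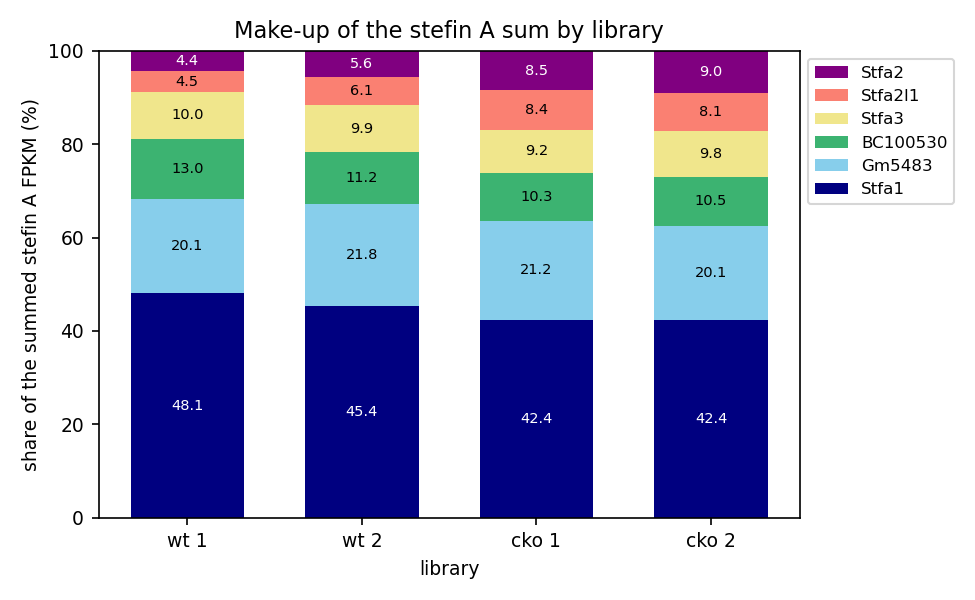
Share of each gene in the summed FPKM of the 6 stefin A genes, in percent, for each library as a stacked bar. Stfa2 and Stfa2l1 take larger shares in the cko bars, 8.15% to 9.03%, than in the wt bars, 4.42% to 6.08%, and within wt their shares are lower in wt 1 than in wt 2.

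The 4 genes that differed most between the groups also differed most between the wt libraries. The ratio of wt 2 to wt 1 was 0.613 for BC100530, 0.669 for Stfa1, 0.704 for Stfa3, 0.769 for Gm5483, 0.905 for Stfa2 and 0.967 for Stfa2l1. Against wt 2 alone, the mean of the cko libraries was 1.72-fold lower for BC100530, 1.71-fold for Stfa1, 1.68-fold for Gm5483 and 1.66-fold for Stfa3, and 1.17-fold for Stfa2l1 and 1.03-fold for Stfa2. The direction in all 6 genes was thus as before without wt 1, and the size was smaller in all 6. The cko libraries lay closer to each other, with a cko 2 to cko 1 ratio of 0.871 to 0.978 over the 6 genes.

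Summed over the 6 genes, stefin A took 44479, 31550, 20613 and 18925 FPKM in wt 1, wt 2, cko 1 and cko 2. This was 9.04%, 6.90%, 4.99% and 4.69% of all FPKM of the library. The FPKM sum still depends on how reads were split among the copies, since the length used for BC100530 (790 bases) differs from that used for Stfa1 (418 bases), whereas the summed reads do not depend on a split among the 6. Of the counted reads, the 6 genes together took 2.07% (95% Clopper-Pearson interval 2.06 to 2.07%) and 1.45% (1.44 to 1.45%) in wt, and 0.938% (0.933 to 0.942%) and 0.863% (0.858 to 0.867%) in cko. These intervals treat each read as independent and leave out the spread between libraries. Reads without molecular identifiers are not independent molecules, so the intervals may be too narrow even for counting error. The sum was 38015 ± 9142 FPKM (SD, n = 2) in wt and 19769 ± 1194 FPKM (SD, n = 2) in cko, 1.92-fold lower (log2 -0.94), and without wt 1 its log2 ratio was -0.67. With 2 libraries against 2, an exact permutation test of a single value cannot give a two-sided p under 0.333, and none was run. Log2 fold changes well below 0 were more frequent among genes with a short length in the FPKM, and the part of length in the stefin A differences was not tested. Among protein-coding genes other than the 7, a log2 fold change of -0.9 or lower was present in 10.7% of 28 genes under 400 bases, 8% of 50 genes of 400 to 600 bases, 4.17% of 264 genes of 600 to 1000 bases, and 0.214% of 4679 genes of 4000 bases or more. Median log2 fold changes in these 4 classes were -0.13, 0.02, -0.08 and 0.11. In libraries of mixed cells, fewer cells of a type and less RNA per cell cannot be told apart.

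Other stefin A loci in or near the same stretch of chromosome 16 were measured at lower levels than each of the 6 genes, and 5 of 10 listed symbols were found in the files. 2010005H15Rik (Csta2 in RefSeq), the close relative of Gm5483, measured 837 and 894 FPKM in wt and 603 and 562 FPKM in cko (-0.57, SE 0.13, adjusted p = 0.213, limma). Gm5416 (Csta3) measured 387 and 270 FPKM in wt and 149 and 333 FPKM in cko, and its groups overlapped (-0.53, SE 0.40). BC117090 (Cstdc6) stood between 71.7 and 109 FPKM with overlap (-0.12, SE 0.24). Gm4758 and Csta1 were near the limit of the data. Gm4758 rested on 6 to 15 reads per library, and Csta1, at 1.18 and 0.802 FPKM in wt and 0.422 and 0.244 FPKM in cko, was below the minimum mean. None of the 4 loci tested passed the thresholds, and including all 5 in the sum left its log2 ratio at -0.93.

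**Figure D4:**
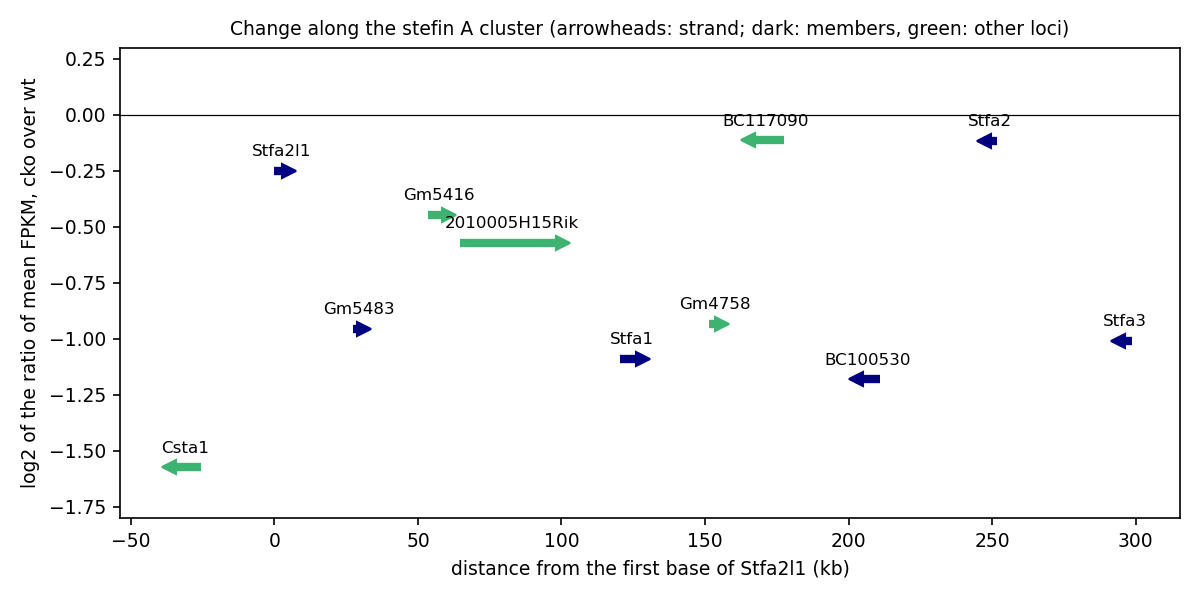
Log2 of the ratio of mean FPKM (cko over wt) of each stefin A locus against its distance from the first base of Stfa2l1 in kb, with bars over the annotated gene and arrowheads for the strand, dark for the 6 genes and green for other loci. The 4 genes with values near -1 lie between Stfa2l1, at -0.25, and the far end of the cluster, and Stfa2 lies between BC100530 and Stfa3, on the same strand as both.

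Changes differed between neighbouring genes of the cluster. The genes on the minus strand held both BC100530 and Stfa2, and those on the plus strand both Stfa1 and Stfa2l1. Of the 23 other genes within 250 kb of the 6, 19 passed the minimum level. In 6 of these 19 both cko libraries were below both wt libraries (18.0% of all genes tested). In 4 both were above (33.6% of all genes tested). Those below wt all lay within the span of the 6 stefin A genes, with log2 fold changes from -0.39 for Gm15845 to -0.96 for Gm25465. Tested genes outside this span overlapped between the groups or were above wt. The median log2 fold change of the 19 was -0.03. The one call was Gm24569, annotated as a snRNA, with 7.36 and 7.15 FPKM in wt and 35.4 and 47.3 FPKM in cko (2.34, adjusted p = 0.150, limma), which rests on 14 to 87 reads. Cd86, the costimulatory ligand gene next to the cluster, measured 13.1 and 9.24 FPKM in wt and 11.3 and 28.4 FPKM in cko, so that its groups overlapped. Gm15845, which overlaps BC100530 on the opposite strand, measured 42.2 and 47.1 FPKM in wt and 34.7 and 33.0 FPKM in cko, and whether reads were counted by strand is not given in the sources used here.

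Cstb, the stefin that most cells use, did not follow the stefin A genes. It measured 57.5 and 42.8 FPKM in wt 1 and wt 2 and 39.0 and 88.0 FPKM in cko 1 and cko 2, from 441 to 939 reads. The groups overlapped, with the lowest and the highest value both in cko. The log2 fold change was 0.24 (SE 0.39), and it was -0.34 without cko 2 and 0.81 without cko 1, so that its direction rests on cko 2. Summed stefin A exceeded Cstb by 774, 737, 528 and 215 times in wt 1, wt 2, cko 1 and cko 2.

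The proteases that stefins inhibit gave no call at either threshold, with log2 fold changes on both sides of 0. Of 10 papain-like cysteine cathepsins, 9 passed the minimum level, and 0 were called in either direction, though 1 was called higher with voom and 3 without cko 1. In 4 of 9 both cko libraries were above both wt libraries (33.6% of all genes tested), in 1 of 9 both were below, and the median log2 fold change was 0.30. Ctsc, cathepsin C, which activates the serine proteases of neutrophil granules, measured 88.0 and 67.2 FPKM in wt and 125 and 240 FPKM in cko (1.16, SE 0.33, adjusted p = 0.228, limma). Ctsz, a carboxypeptidase of the same family, measured 34.1 and 34.5 FPKM in wt and 49.3 and 84.0 FPKM in cko (0.89, SE 0.26, adjusted p = 0.233, limma). For both, the groups did not overlap and cko 2 was the highest library. Ctsl, cathepsin L, measured 12.2 and 9.76 FPKM in wt and 14.4 and 24.7 FPKM in cko (0.74, SE 0.28), and Ctsb, the abundant cathepsin B, 119 and 113 FPKM in wt and 121 and 168 FPKM in cko (0.30, SE 0.19).

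Ctss, the cathepsin S of antigen-presenting cells, overlapped between the groups, at 69.7 and 50.5 FPKM in wt and 57.5 and 127 FPKM in cko (0.52, SE 0.39). Ctsh, Ctso and Ctsw overlapped as well, with log2 fold changes of -0.08, -0.07 and -0.12. Ctsf was the one tested cathepsin with both cko libraries below wt, at 5.33 and 2.80 FPKM in wt and 2.43 and 1.69 FPKM in cko (-0.69, SE 0.31). Ctsk, the cathepsin of osteoclasts, was below the minimum level, at 0.449 to 0.703 FPKM. Summed over the 10 genes, cathepsins took 344, 292, 383 and 661 FPKM in wt 1, wt 2, cko 1 and cko 2. The stefin A sum was 129 and 108 times this in wt and 53.9 and 28.6 times in cko, and the spread between the 2 cko ratios came mainly from the cathepsins of cko 2. The size of these ratios depends on the lengths used, such as 6051 bases for Ctsb and 5808 for Ctsc against 418 for Stfa1.

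**Figure D5:**
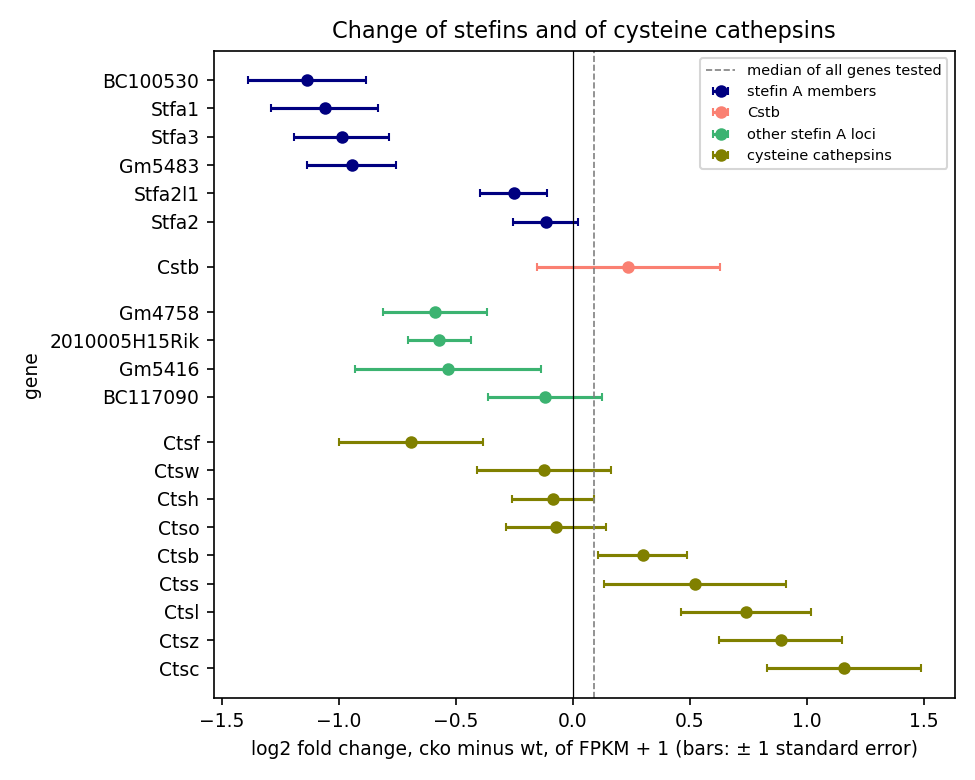
Log2 fold change (cko minus wt, of FPKM + 1) with 1 standard error of the fit for the 6 stefin A genes, Cstb, the 4 tested other stefin A loci and the 9 tested cathepsins, with a dashed line at the median of all genes, 0.09. BC100530, Stfa1, Stfa3 and Gm5483 lie between -1.14 and -0.95, Stfa2l1 and Stfa2 near 0, and Ctsc lies furthest to the right at 1.16.

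Inhibitors outside the stefin family gave 0 calls. Of the other cystatin family genes, 5 passed the minimum level and 0 were called (1 lower without wt 1). Cst3, the secreted cystatin C, measured 61.9 and 56.6 FPKM in wt and 55.4 and 64.6 FPKM in cko, and Cst7, the cystatin F of leukocyte lysosomes, 20.1 and 12.3 FPKM in wt and 21.8 and 25.1 FPKM in cko (0.54, SE 0.25). Ahsg, the liver plasma protein fetuin A, measured 24.6 and 42.0 FPKM in wt and 16.7 and 19.2 FPKM in cko (-0.81, SE 0.27). Of 12 leukocyte inhibitors of other protease classes, 9 passed and 0 were called (1 without cko 1 and 1 without cko 2). Serpinb1a, the neutrophil elastase inhibitor, was at 899 and 891 FPKM in wt and 1044 and 809 FPKM in cko. Slpi, a further inhibitor of neutrophil serine proteases, was at 38.1 and 36.8 FPKM in wt and 27.9 and 30.8 FPKM in cko (-0.35, SE 0.14), and Wfdc17 at 54.5 and 37.0 FPKM in wt and 79.0 and 226 FPKM in cko (1.55, SE 0.50, adjusted p = 0.251, limma). A list of 5 genes, cathepsins outside the papain-like family and legumain (Lgmn), gave 0 calls as well. The aspartic protease gene Ctse was at 175 to 215 FPKM, Ctsg at 63.8 to 98.5 FPKM and Lgmn at 35.3 to 59.7 FPKM.

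Markers of other cell types were set beside the stefin A levels. Over all genes tested, both cko libraries were below both wt libraries in 18.0% and above them in 33.6%. At the unadjusted threshold 0.408% were called lower and 1.88% higher. Of 15 late neutrophil markers, 9 had both cko libraries below wt, 3 above and 3 overlapping, with 0 called higher and 2 called lower at the unadjusted threshold (median log2 fold change -0.40). These calls were lost without wt 1, without cko 2, without a filter on low values and under quantile normalization. The calls were S100a8, a calcium-binding alarmin subunit, at 32243, 21503, 13010 and 12062 FPKM in wt 1, wt 2, cko 1 and cko 2 (-1.07, adjusted p = 0.210, limma), and Camp, the cathelicidin, at 19301, 17673, 9260 and 7948 FPKM (-1.11, adjusted p = 0.183, limma). S100a9 had both cko libraries below wt too (-0.72), while Ngp, a granule protein that is itself related to cystatins, overlapped at 43779, 43834, 46573 and 35443 FPKM. Lcn2, Cxcr2 and Csf3r were above wt in both cko libraries. The summed level of the list was 139650 to 163279 FPKM in wt and 93769 to 113506 FPKM in cko, and no marker was at 0 in all libraries.

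The stefin A sum per unit of Ngp was 1.02 and 0.720 in wt and 0.443 and 0.534 in cko, and per unit of S100a8 it was 1.38 and 1.47 in wt and 1.58 and 1.57 in cko. Its direction relative to a neutrophil gene thus depended on the gene chosen. The ratio of Stfa1 to S100a8, chosen after their values were seen, was 0.663, 0.665, 0.672 and 0.666 in the 4 libraries, so that these genes on different chromosomes kept 1 proportion to each other in every library, within wt as well as between the groups. Early neutrophil markers gave 0 calls, with 4 of 6 above wt in both cko libraries (33.6% of all genes tested). Their sums were 1288 to 1364 FPKM in wt and 1690 to 2051 FPKM in cko.

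Erythroid markers had both cko libraries below both wt libraries in 7 of 8 genes. This pattern was present in 18.0% of all genes tested, which is the share to set beside the lists below too. Called lower was 1 gene (0.408% of all genes tested), Hbb-bs, a beta globin, at 1007, 653, 358 and 424 FPKM (adjusted p = 0.210, limma). Erythroid sums of 3713, 2335, 1422 and 1506 FPKM in wt 1, wt 2, cko 1 and cko 2 followed the stefin A order of wt 1, wt 2 and the cko libraries. Monocyte and macrophage markers gave 0 calls and mostly overlapped, with sums of 536 to 758 FPKM and 263 to 447 FPKM over the 4 libraries. Their median log2 fold changes were 0.42 and 0.08. Of the monocyte markers, 2 of 8 were above wt in both cko libraries (33.6% of all genes tested) and 1 was below. Of 6 hepatocyte markers tested, Apoa1 was called lower, at 30.9 and 48.1 FPKM in wt and 14.8 and 18.4 FPKM in cko, with 3 of 6 below wt in both cko libraries, and the summed level of the 8 markers was 60.4 and 102 FPKM in wt and 43.0 and 52.6 FPKM in cko. B cell markers gave 0 calls, but 5 of 6 had both cko libraries below both wt libraries (median log2 fold change -0.51), with sums of 52.7 and 67.1 FPKM in wt and 34.3 and 44.5 FPKM in cko. T cell markers gave 0 calls as well, with 2 of 2 tested below wt in both cko libraries (median -0.68) and sums of 8.24 and 9.10 FPKM in wt and 5.30 and 4.05 FPKM in cko. Megakaryocyte markers, and those of mast cells, basophils and eosinophils, gave 0 calls and mostly overlapped, with sums of 10.3 to 25.3 and 115 to 303 FPKM. Keratinocytes, which also express stefin A, were represented by 2 of 7 markers in the files, with summed levels of 0.456 to 1.10 FPKM. The part of the neutrophil, monocyte, erythroid and lymphoid shifts in the stefin A levels was not tested.

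Genes with the most similar profiles were named by the smallest distance between centred log2(FPKM + 1) values over the 4 libraries, among 5806 genes whose mean reached 5 FPKM. For the stefin A sum these were Cfap36, 0610009B22Rik, Hba-a1, Clec4a2 and Rhag, at distances of 0.0782 to 0.142. Hba-a1, an alpha globin, measured 1961, 1366, 826 and 840 FPKM, and Clec4a2, a lectin receptor of myeloid cells, 161, 124, 80.4 and 76.0 FPKM in wt 1, wt 2, cko 1 and cko 2. For Cstb they were Tifa, 5430427O19Rik, Zbp1, Ms4a6c and Adgre1, at distances of 0.0970 to 0.178. Ms4a6c measured 45.5, 30.3, 32.2 and 67.9 FPKM and Tifa 19.8, 15.6, 14.5 and 31.3 FPKM, with cko 2 the highest library for both, as for Cstb. With 4 libraries, such likeness covers few independent points.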

How the data were processed

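The 4 libraries were grouped by their labels (wt or cko, 2 each). The authors deposited 1 file of FPKM values for each library, and the labels list Bowtie2 2.2.3, TopHat2 2.0.12, HTSeq 0.6.0 and the build mm9. The gene positions were nevertheless identical to GENCODE M21 (GRCm38) for 92.6% of genes, and GRCm38 was used. Settings, read length and strand are not given in the sources used here. Whole reads were recovered from the FPKM steps for 99.9% of genes within a tolerance of 0.02 reads, which gave the library totals. Groups were compared by the moderated linear model of limma (version 3.58.1, R 4.3.3, variance trend on) fitted to log2(FPKM + 1). It covered 10779 genes whose mean reached 1 FPKM, with Benjamini-Hochberg adjustment over all of them. Fold changes on this scale are understated for low genes. The members, gene lists and alternatives were chosen with earlier results of these data known. Besides the members, the genes named are other stefin A loci, all papain-like cathepsins, called genes and the 3 most abundant genes of lists of interest, chromosomal neighbours, and the 5 genes closest in profile, plus further list genes given as examples after their values were seen. Alternatives were a pseudocount of 0.1, filters of 0 and 5 FPKM, scaling by median-of-ratios or quantiles, a fit without trend, a replicate block, voom on reads (minimum mean of 10), and leaving out single libraries. Sequences came from GENCODE M21 and RefSeq (GRCm38.p6), in which promoters were found for 6 of the 7 genes. Alignments were made with Biopython 1.88, tables in Python (3.11.15) and plots in matplotlib (3.10.9).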

Additional observations from a re-analysis of the deposited data

How the results depend on the processing

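All 48 alternative values of the 6 stefin A genes were below 0, and 44 of them stayed within 1 SD between libraries of the main value. The exceptions were quantile normalization, which gives each rank 1 value and left Stfa1 at -0.20 and Gm5483 at -0.35, and median-of-ratios scaling, which gave -0.22 for Stfa2 and -0.36 for Stfa2l1 as part of a shift shared by all genes. Leaving out each library in turn gave log2 ratios of -1.17 to -0.67 for the stefin A sum, the smallest without wt 1, and values of -0.34 to 0.81 for Cstb. The count of genes at the adjusted threshold was 0 and became 2 with voom. At the unadjusted threshold 247 genes passed (203 higher, 44 lower, against 146 and 65 with median-of-ratios scaling and 150 and 79 with quantile normalization), 126 passed when genes under a mean of 5 FPKM were dropped, which leaves fewer genes to test, and 131 to 462 with 1 library left out (147 without wt 1, 462 without cko 1, 131 without cko 2). Calls among cathepsins went from 0 to 1 with voom and ranged from 0 to 3 with 1 library left out (3 without cko 1). Calls among other cystatins ranged from 0 to 1 (1 without wt 1), and so did those among other leukocyte inhibitors (1 without cko 1 and 1 without cko 2). The 2 calls among late neutrophil markers fell to 0 without a filter and to 0 with quantile normalization, and ranged from 0 to 2 with 1 library left out (0 without wt 1 or cko 2, 1 without cko 1). The cause of these changes was otherwise not tested. With replicate numbers as a block in the fit, 0 genes passed the adjusted and 258 the unadjusted threshold, and the list counts above did not change. The labels do not say that the numbers pair the libraries, and deviations of same-numbered libraries correlated at -0.16 across genes.

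With 2 libraries per group, wt 1 the furthest from the rest in stefin A and cko 2 in Cstb and the cathepsins, sizes of change are known only roughly. Counting error does not limit the stefin A genes, at 11293 or more reads each per library, but does limit Gm4758, Csta1 and the snRNA genes of the cluster. Protein levels and protease activity were not measured in these files.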
